A study of Mus musculus with 67 samples.

Results

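A set of 6 genes of immune recognition and antigen presentation, Fcgr1, Lgals3bp, H2-T10, Cd160, Malt1 and Dtx3l, were followed across age and diet in the mouse cerebral cortex. Every probe that the platform annotation assigns to exactly 1 gene symbol, with that symbol being one of these names, was taken, and each of the 6 genes was represented by 1 probe. They are 6 of 4209 genes, and 6 of 4875 probes with 1 gene symbol, among 8448 probes in all. The mice were C57BL/6 with no genetic modification named in the labels, and each array held cortex RNA of 1 mouse hybridized as radiolabelled cDNA to a filter. Mice fed ad libitum (AL) were killed at 17-21 days (n = 5), 33-44 days (n = 5), and 6, 16 and 24 months (n = 10 at each age). Mice on caloric restriction (CR) were killed at 6 (n = 9), 16 (n = 10) and 24 months (n = 8); by the labels, their fortified feed was lowered from 13 weeks of age to 90% and then 75% for 1 week each and was held at 60% thereafter. The methods place each of these steps a week later than the labels do. All groups held both sexes. The 3 CR males of the 24 month group were 673 days old, whereas the AL mice of that group were 704 to 743 days old. Values are z scores, that is, the distance of a probe from the mean of its own array in units of the SD of that array, so a difference of 0.1 is 0.1 array SD and not a fold change.

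Brain immune surveillance rests mainly on microglia, the resident macrophages, while T cells and natural killer cells are sparse in the healthy cortex. Fc receptors let myeloid cells bind antibody-coated targets, class I histocompatibility molecules display ligands to lymphocytes, and both systems are raised by interferons. Receptor signals reach the transcription factor NF-kB through adaptor complexes, and ubiquitin ligases tune interferon signalling. Fcgr1 encodes the high-affinity receptor for IgG on macrophages and microglia. H2-T10 belongs to the nonclassical class I genes of the T region, and Cd160 encodes a receptor of natural killer and T cells that binds class I molecules. Malt1 is the protease and scaffold that joins CARD proteins and BCL10 to NF-kB, Lgals3bp is a secreted glycoprotein that binds galectins, and Dtx3l is a ubiquitin ligase that works with the ADP-ribosyltransferase PARP9.

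RefSeq (GRCm38.p6) promoter windows, from 250 bases before to 50 bases after the gene start, were at hand for 4 of the 6 genes, Fcgr1, Lgals3bp, Cd160 (2 starts) and Dtx3l. Interferon gamma acts through the palindromic motif TTCNNNGAA and type I interferons through motifs built on GAAANNGAA, and these were searched on both strands together with AAANNGAAA, a variant of the latter that was added after the Lgals3bp sequence had been seen. The stretches below are shown because Fcgr1 and Lgals3bp are known as interferon-induced genes and hold 1 match each, in capitals.
Fcgr1 (chr3:96294030-96294109, minus strand, 140 to 61 bases before the start): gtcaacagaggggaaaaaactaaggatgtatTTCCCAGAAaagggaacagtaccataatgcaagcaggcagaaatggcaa
Lgals3bp (chr11:118401960-118402039, minus strand, 80 to 1 bases before the start): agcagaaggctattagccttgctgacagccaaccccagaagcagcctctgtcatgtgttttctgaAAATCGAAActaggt
TTCNNNGAA was present in 8.3% of the 32851 promoter windows, GAAANNGAA in 8.56% and AAANNGAAA in 10.6%. The second Cd160 window held 1 match to TTCNNNGAA, and no other match to the 3 motifs was found in the windows of these 4 genes. The matches describe the letters only, and nothing measured here bears on binding.

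Several properties of the arrays bear on the values below. The labels number the arrays but name no array sets. The break between arrays 45 and 46 was placed from these numbers and the values, so a step there is a description and not a test. Arrays numbered 46 to 67 (n = 22) differed from arrays 1 to 45 (n = 45), and all 5 arrays at 17-21 days lay in the earlier set. Separately, 48.1% of the variance lay on the first principal component. Whether that component follows the array sets was not tested. Probes near each other on the filter moved together; rows are numbered within each of the 16 blocks of a filter as read from the order of the probes. Replicate 2 of the 16 month AL males and replicate 2 of the 16 month AL females had nearly the same values (r = 0.99975, with 4312 probes identical), so they were averaged and counted as 1 sample in each mean ± SD. In the fits they remained 2 arrays, except where a fit is said to leave them out. Of the cortex markers, 2 of 27 neuronal genes were measured, Nefl with a mean z score of 0.25 and Uchl1 of -0.21, which is too few to check the tissue label. In whole tissue, fewer cells of a type and less RNA per cell cannot be told apart.

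At the level of single probes, 2 of the 6 genes differed most between the array sets, whose break was placed with the values in view. Malt1 had a mean of -0.31 ± 0.19 on arrays 1 to 45 and -0.92 ± 0.18 on arrays 46 to 67 (SD, n = 45 and 22). Lgals3bp had a mean of -0.15 ± 0.13 and -0.72 ± 0.16 on the same sets. With group means fitted, the shift was -0.62 for Malt1 and -0.54 for Lgals3bp, and 5.47% and 7.55% of all probes dropped further. In their filter columns, 22 and 20, the median shift of all probes was -0.129 and -0.233. For Malt1 and Lgals3bp the shift between sets was larger than the SD within either set. It was small for the other 4, with means of 1.28 and 1.23 for Fcgr1, 0.39 and 0.44 for H2-T10, -0.48 and -0.54 for Cd160, and -0.65 and -0.54 for Dtx3l.

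**Figure D1:**
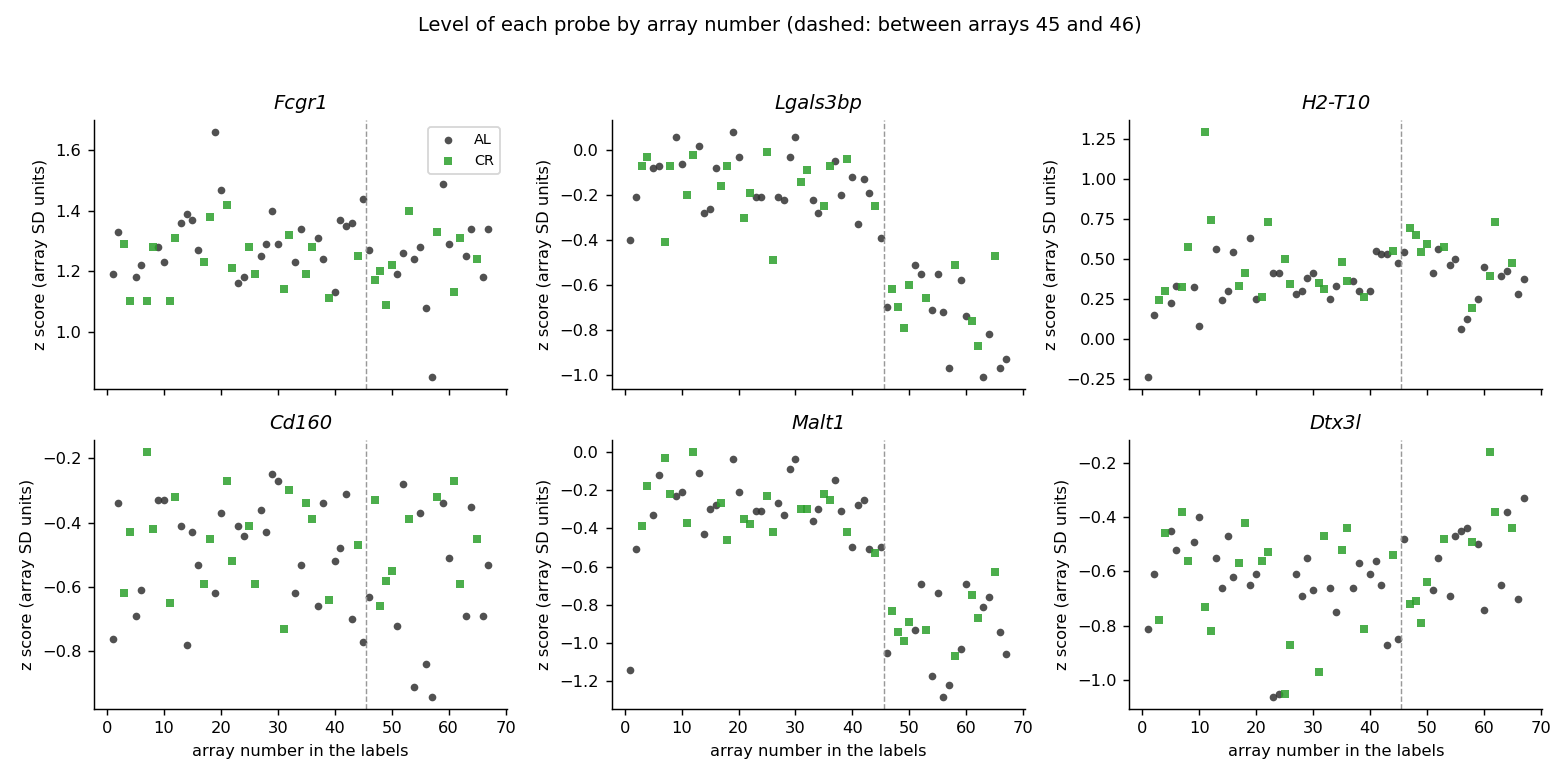
z score of each of the 6 probes (vertical axis, array SD units) against array number (horizontal axis), with black circles for AL and green squares for CR mice; the dashed line lies between arrays 45 and 46. Lgals3bp and Malt1 drop at the line, from means of -0.15 to -0.72 and from -0.31 to -0.92, and the other 4 probes show no such step.

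Over all 67 arrays Lgals3bp and Malt1 correlated with r = 0.853, and after the means of group and array set were removed with r = 0.432. These are descriptions over arrays that share the set shift. Among the other 14 pairs the deposited values gave r between -0.219 (Lgals3bp and Dtx3l) and 0.429 (Cd160 and Malt1). After the means of group and array set were removed, these pairs had r between -0.0639 (H2-T10 and Dtx3l) and 0.467 (Cd160 and Malt1). Cd160, the receptor, and H2-T10, of the gene family that such receptors bind, had r = 0.0827.

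Levels in each group are given next, gene by gene, in z scores. Fcgr1 stood at 1.33 ± 0.051 at 17-21 days and 1.17 ± 0.22 at 33-44 days on AL (SD, n = 5 each). In adult AL mice it stood at 1.36 ± 0.15 at 6 months, 1.25 ± 0.054 at 16 months and 1.28 ± 0.085 at 24 months (n = 10, 9 and 10). In CR mice it stood at 1.25 ± 0.091, 1.23 ± 0.095 and 1.22 ± 0.11 at the same ages (n = 9, 10 and 8). The mean was highest in 6 month AL and lowest in 33-44 day AL mice, and its probe lay above 90% of all probes by mean z score. The other measured genes of microglia and complement had mean z scores from -2.11 (Axl) to 0.77 (C1qc). Whether the level of a probe tracks the amount of its transcript was not tested.

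H2-T10 stood at 0.40 ± 0.16 at 17-21 days and 0.15 ± 0.29 at 33-44 days on AL. Adult AL mice had 0.37 ± 0.14, 0.36 ± 0.13 and 0.38 ± 0.12 at 6, 16 and 24 months. CR mice had 0.36 ± 0.13, 0.52 ± 0.18 and 0.59 ± 0.32 at these ages. RefSeq lists H2-T10 as a transcribed pseudogene, and a cDNA probe may also capture transcripts of the near-identical genes of the H2-T family, so its identity is uncertain.

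Cd160 stood at -0.34 ± 0.11 at 17-21 days and -0.73 ± 0.19 at 33-44 days on AL, its highest and lowest group means. Adult AL mice had -0.57 ± 0.13, -0.46 ± 0.18 and -0.55 ± 0.19 at 6, 16 and 24 months. CR mice had -0.50 ± 0.14, -0.40 ± 0.15 and -0.50 ± 0.13. Malt1 also had its extremes at the juvenile ages, with -0.23 ± 0.19 at 17-21 days and -0.89 ± 0.45 at 33-44 days. In adult AL mice Malt1 stood at -0.46 ± 0.36, -0.49 ± 0.30 and -0.58 ± 0.37. In CR mice it stood at -0.49 ± 0.30, -0.48 ± 0.33 and -0.50 ± 0.34. Each adult SD of Malt1 includes arrays of both sets.

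Lgals3bp stood at -0.078 ± 0.10 at 17-21 days and -0.51 ± 0.33 at 33-44 days on AL. Adult AL mice had -0.30 ± 0.29, -0.37 ± 0.37 and -0.43 ± 0.34, and CR mice -0.21 ± 0.21, -0.42 ± 0.29 and -0.34 ± 0.31. Dtx3l had similar means at all AL ages, with -0.62 ± 0.046 and -0.61 ± 0.21 at the juvenile ages and -0.62 ± 0.13, -0.60 ± 0.20 and -0.59 ± 0.12 at 6, 16 and 24 months. CR mice had -0.59 ± 0.18, -0.50 ± 0.17 and -0.75 ± 0.20 for Dtx3l. When the 8 groups were ordered by mean, no step between neighbours exceeded the larger of the 2 SDs for any of the 6 genes.

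**Figure D2:**
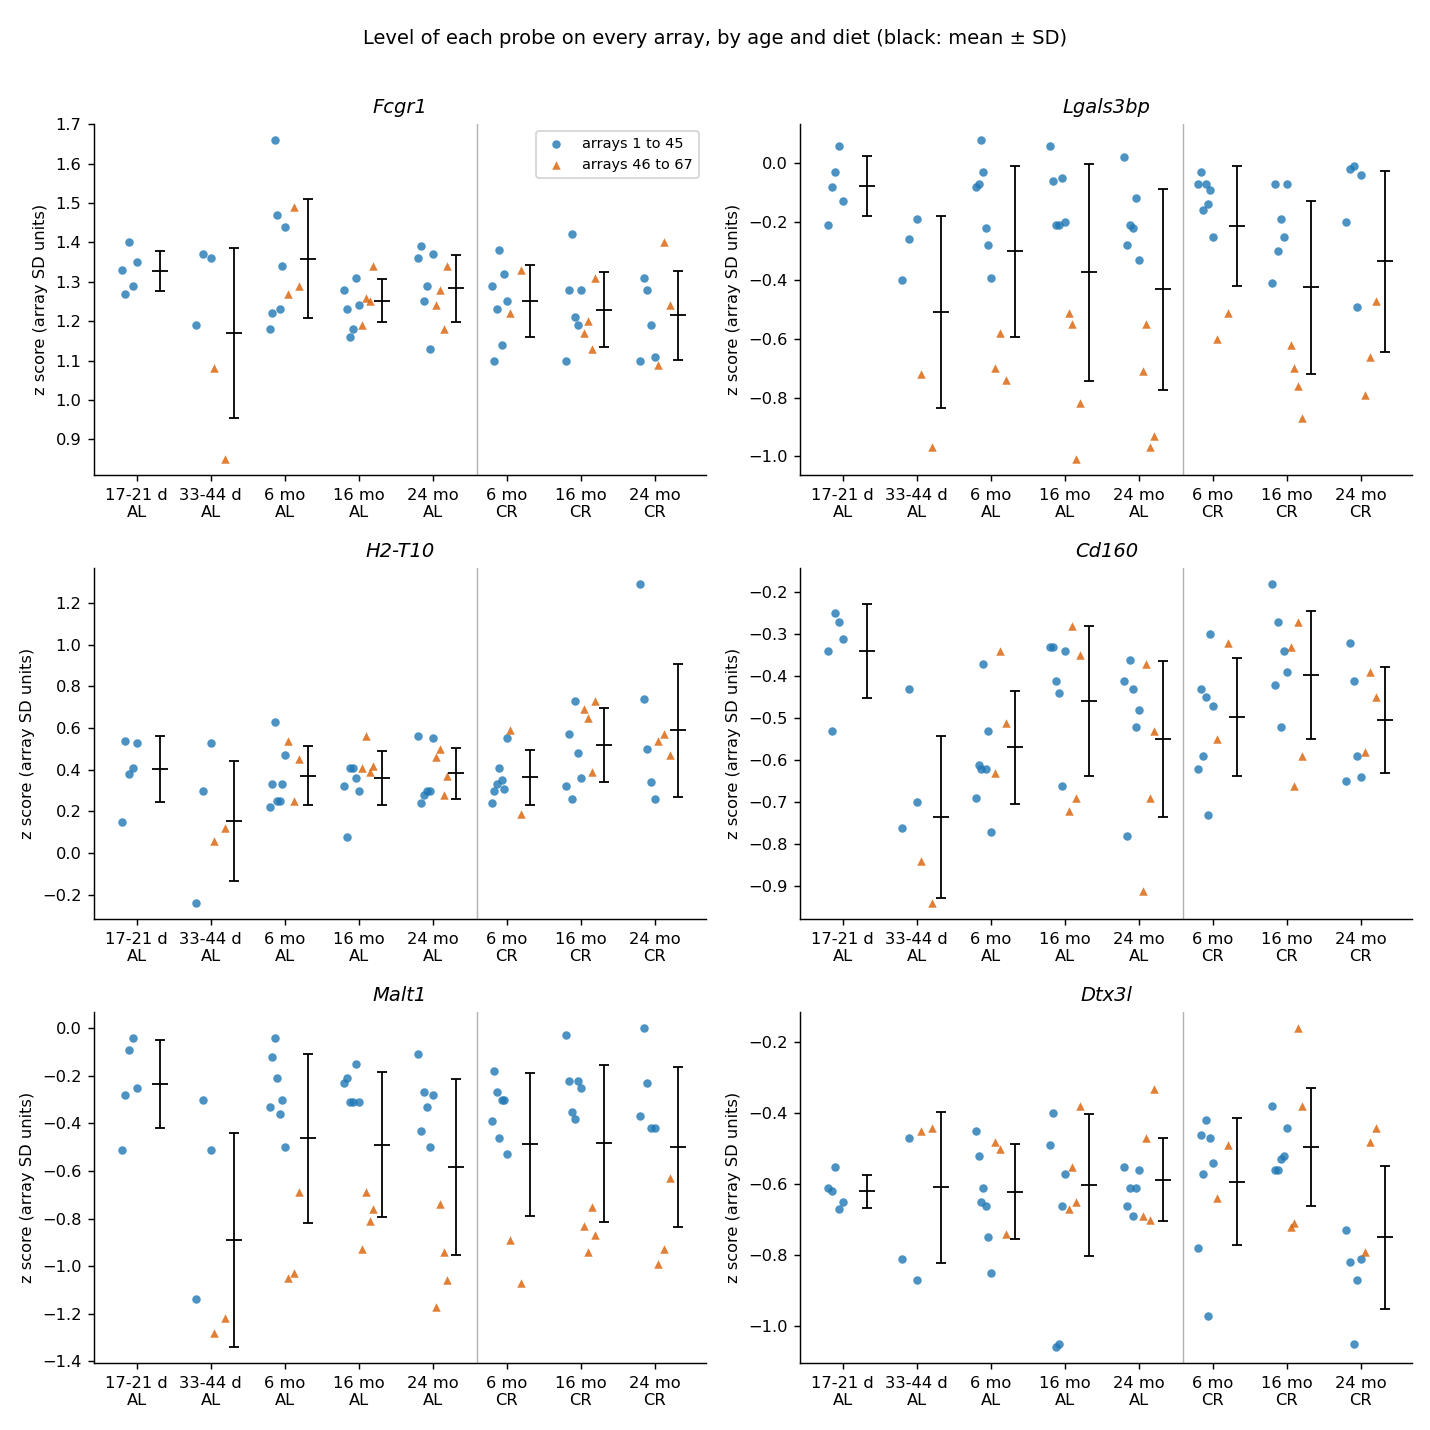
z score of each probe (vertical axis, array SD units) on every array, by age and diet (horizontal axis); blue circles are arrays 1 to 45, orange triangles arrays 46 to 67, and black bars the mean ± SD with the near-identical pair of 16 month AL arrays averaged. Cd160 and Malt1 are lowest at 33-44 days (-0.73 and -0.89), H2-T10 has 1 array at 1.29 among 24 month CR mice, and the orange triangles of Lgals3bp and Malt1 sit below the blue circles within most groups.

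The comparison of 33-44 with 17-21 days on AL covered the step from weanling to adolescent mice. Cd160 fell and was the only 1 of the 6 that passed (limma, Benjamini-Hochberg adjusted over all probes, threshold 0.05); over all probes 8 of 8448 passed (0.0947%), all downward. The Cd160 values at 17-21 days were -0.25 and -0.31 in males and -0.34, -0.53 and -0.27 in females. At 33-44 days they were -0.76, -0.43 and -0.84 in males and -0.70 and -0.94 in females. All 5 older mice lay below the mean of the younger mice, and the ranges of the groups overlapped through 1 mouse on each side. The fitted difference, with the sexes weighted equally, was -0.42 (95% interval -0.60 to -0.23, limma adjusted p = 0.0377).

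Malt1 showed the largest difference of the 6 in the same direction without passing. Its values at 17-21 days were -0.09 and -0.25 in males and -0.51, -0.28 and -0.04 in females, and at 33-44 days -1.14, -0.30 and -1.28 in males and -0.51 and -1.22 in females. All 5 older mice were below the younger mean, in a low cluster of 3 and a pair within the younger range. The difference was -0.66 (-1.11 to -0.21, limma adjusted p = 0.189). The low cluster held both 33-44 day arrays of the later set and array 1 of the earlier set.

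Lgals3bp had -0.03 and -0.13 in males and -0.21, -0.08 and 0.06 in females at 17-21 days, and -0.40, -0.26 and -0.72 in males and -0.19 and -0.97 in females at 33-44 days. Its difference was -0.44 (-0.84 to -0.042, limma adjusted p = 0.325), with all 5 older mice below the younger mean. Fcgr1 differed by -0.18 (-0.33 to -0.021, limma adjusted p = 0.318), and 3 of 5 older mice were below the younger mean. H2-T10 differed by -0.23 (-0.46 to 0.0065, limma adjusted p = 0.357), with 4 of 5 older mice below. Dtx3l had a difference of 0.00083 (-0.22 to 0.22, limma adjusted p = 0.997). The median of the 6 differences was -0.32, against 0.0033 over all probes, and 5 of 6 were negative, against 49.4% of all probes.

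The place of the probes on the filter moved with this comparison. H2-T10 and Malt1 lie in row 6, Cd160 in row 7, Fcgr1 and Lgals3bp in row 8, and Dtx3l in row 15. Over the 24 rows the median difference of all probes in a row formed a gradient. In rows 1 to 8 it lay between -0.212 and -0.121, with 73.3% to 89.2% of the probes negative, in rows 9 to 14 between -0.00667 and 0.0279, and in rows 15 to 24 between 0.0662 and 0.228, where row 24 had 7.1% negative. All 8 probes that passed lay in rows 5 to 7 and in blocks 1 to 5 of the 16 blocks. Of the members, H2-T10 lies in block 6 and the others in blocks 1 to 5. When the mean deviation of the surrounding probes, in a window of 5 by 5, was subtracted, 0 probes passed by limma (449 at an unadjusted p under 0.05). Cd160 then differed by -0.12, Malt1 by -0.29, Lgals3bp by -0.34, H2-T10 by -0.0098 and Fcgr1 by 0.042. The share of the Cd160 difference that belongs to the filter was not tested.

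**Figure D3:**
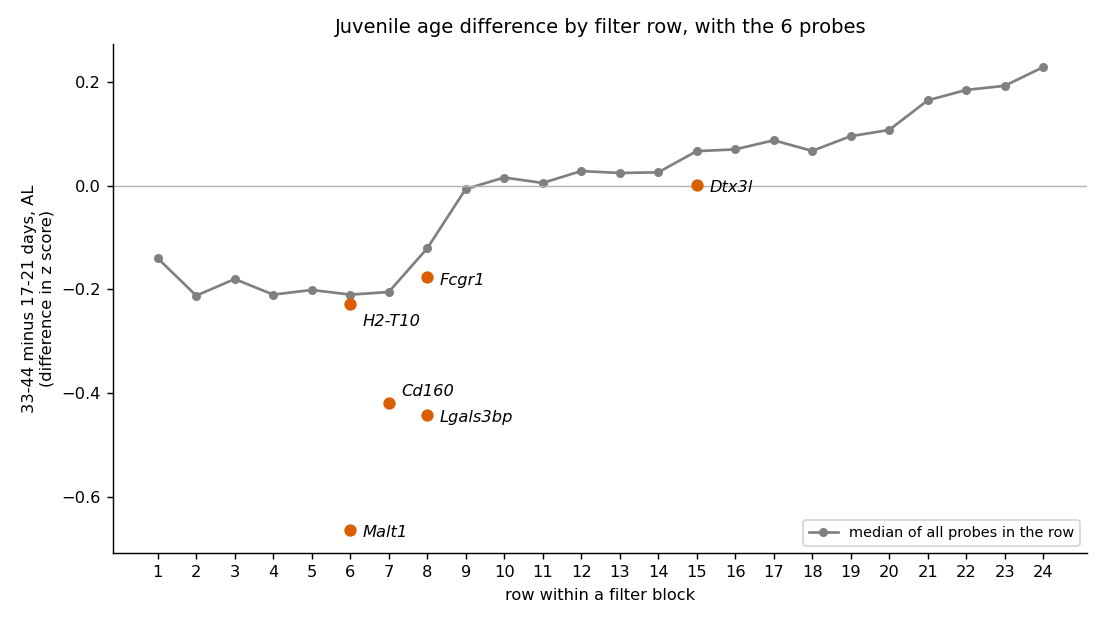
Difference in z score between 33-44 and 17-21 day AL mice (vertical axis) by row within a filter block (horizontal axis, 24 rows); grey points are the median over all probes of a row and orange points the 6 probes. The row medians lie below 0 in rows 1 to 8 and rise to 0.228 in row 24; Malt1 (-0.66), Lgals3bp (-0.44) and Cd160 (-0.42) lie below the median of their rows, and Fcgr1 and H2-T10 close to it.

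The array sets bear on the same comparison, since 2 of the 5 arrays at 33-44 days and none at 17-21 days belonged to the later set. With the array set as a block, Cd160 differed by -0.40 (limma adjusted p = 0.0233) and Malt1 by -0.41 (limma adjusted p = 0.0485), and both passed among 70 probes (0.829%). With array cycle alone as a block, which is 1 of 5 successive runs of array numbers, Cd160 differed by -0.41 and did not pass (limma adjusted p = 0.0618), and 1 probe of all did (0.0118%). With array cycle and array set as blocks, Cd160 passed (adjusted p = 0.0463) among 21 probes (0.249%) and Malt1 did not (adjusted p = 0.0638). Within arrays 1 to 45, where 3 arrays at 33-44 days faced 5 at 17-21 days, Cd160 differed by -0.32 and Malt1 by -0.39, and the limma adjusted p-values were 0.711 and 0.814. The later set held no mouse of 17-21 days. Over all settings other than leaving out 1 array, the adjusted p ranged from 0.0233 to 0.989 for Cd160 and from 0.0485 to 0.989 for Malt1.

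Single arrays also decided which probes passed at the juvenile ages. Over the 10 fits that each left out 1 of these arrays, between 0 and 441 of all probes passed, the Cd160 difference ranged from -0.48 to -0.36, and Cd160 passed in 3 of the 10. It did not pass without male replicate 1 or 3 or female replicate 2 of 33-44 days, or without male replicate 1 or 2 or female replicate 1 or 3 of 17-21 days. The limma adjusted p of Cd160 was highest, at 0.994, without 33-44 days AL female replicate 2, its lowest value. Without 33-44 days AL female replicate 1, Fcgr1 passed at -0.30 (adjusted p = 0.0240) and Malt1 at -0.84 (adjusted p = 0.0413), beside Cd160 and among 5.22% of all probes. Without 33-44 days AL male replicate 2, Malt1 passed at -0.81 (adjusted p = 0.0383), beside Cd160 and among 2.53% of all probes. Leaving out 33-44 days AL female replicate 2 gave the differences nearest to 0 among the 10 fits for each of the 6 genes but Dtx3l. Cd160 was then at -0.36, Fcgr1 at -0.049, Lgals3bp at -0.25, H2-T10 at -0.13 and Malt1 at -0.485, and 0 of the 6 passed.

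Markers of other cells were read beside the juvenile result. Of 8 measured genes of blood cells, Hbb-y, an embryonic beta globin, fell with a difference of -0.42 (limma adjusted p = 0.0265), and it lies in row 7, as does Cd160. Of these 8 genes 4 differences were positive and 4 negative, and the list mean of z scores ranged from 0.148 to 0.269 at 17-21 days and from 0.025 to 0.261 at 33-44 days. The list mean of 10 genes of microglia and complement ranged from -0.35 to -0.14 and from -0.41 to -0.041, and that of 9 genes of meninges, vessels and pericytes from 0.466 to 0.576 and from 0.381 to 0.581. Of 55 listed lymphocyte genes, 2 were measured, Cd160 and Cd244a, so the content of lymphocytes was not tested. Cd244a, another receptor of natural killer cells, had a difference of 0.33 (limma adjusted p = 0.352), opposite in sign to that of Cd160. It lies in row 16, where 35.8% of all probes were negative, against 88.1% in row 7, which holds Cd160. The part of the filter row in this contrast was not tested.

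From 33-44 days to 6 months on AL, 5 of the 6 differences were positive and 0 of 6 passed, as did 0 of 8448 probes (0%; limma, with 3 of the 6 and 449 probes at an unadjusted p under 0.05). Malt1 differed by 0.42 (0.035 to 0.81, limma adjusted p = 0.875) and Lgals3bp by 0.22 (limma adjusted p = 0.987). Fcgr1 differed by 0.20 (0.066 to 0.33, limma adjusted p = 0.732), with 10 of 10 mice at 6 months above the mean of the younger group. H2-T10 differed by 0.19 and Cd160 by 0.18, with 10 of 10 and 9 of 10 mice above that mean, and Dtx3l by -0.0052. This comparison shares the 33-44 day mice with the preceding one, so opposite signs in both are not separate evidence. Within arrays 1 to 45 Fcgr1 differed by 0.040 and within arrays 46 to 67 by 0.42, and without 33-44 days AL female replicate 1 it passed at 0.33 (limma adjusted p = 0.0396) among 0.107% of all probes. Without 33-44 days AL female replicate 2 the differences were 0.072 for Fcgr1, 0.024 for Lgals3bp, 0.087 for H2-T10 and 0.245 for Malt1. After subtraction of neighbours Fcgr1 differed by 0.088, Cd160 by 0.025 and Malt1 by 0.17.

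**Figure D4:**
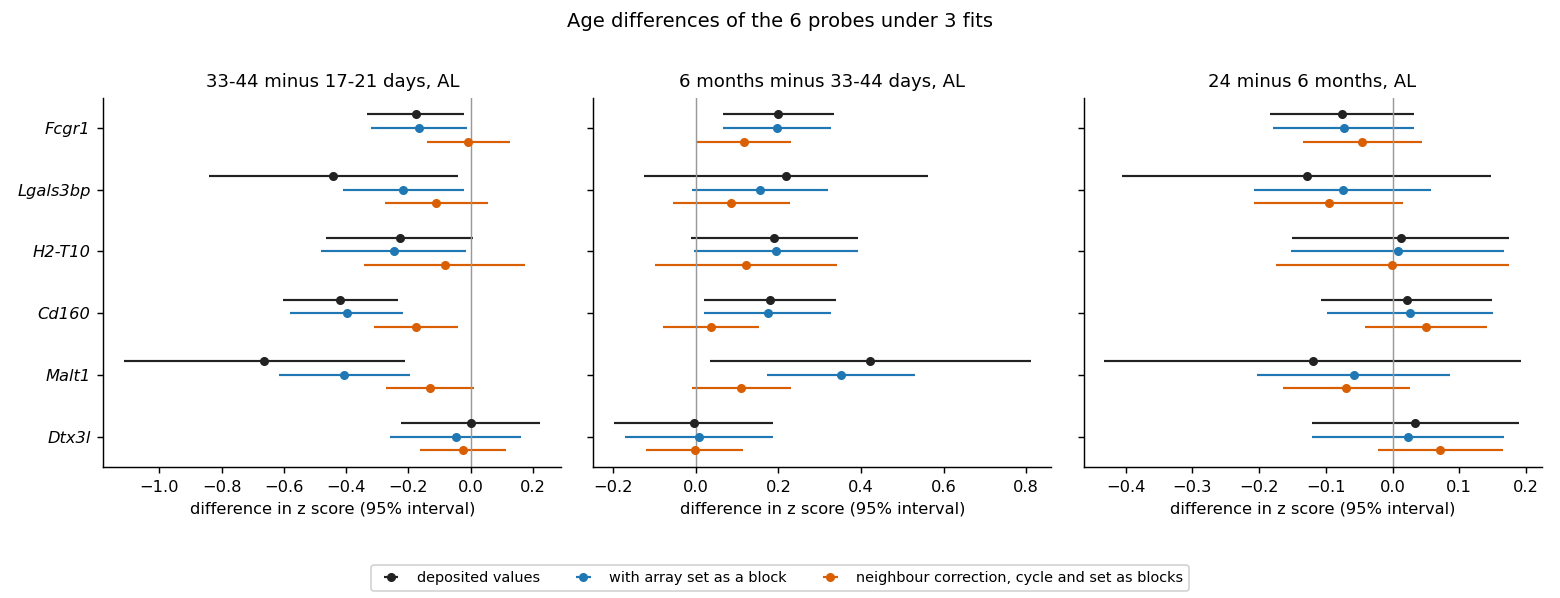
Differences in z score (horizontal axis, points with 95% intervals) of the 6 probes in 3 age comparisons on AL, from the deposited values (black), with array set as a block (blue) and after subtraction of neighbouring probes with array cycle and set as blocks (orange). The Malt1 difference at the juvenile ages goes from -0.66 to -0.41 and -0.13, that of Cd160 from -0.42 to -0.40 and -0.17, and all intervals between 6 and 24 months cross 0.

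The adult ages on AL addressed aging. None of the 6 genes passed between 6 and 16, 16 and 24, or 6 and 24 months, where 0 of 8448 probes passed in each comparison (0%; limma, with 257, 555 and 244 probes at an unadjusted p under 0.05). From 16 to 24 months 54 probes passed with array cycle as a block (49 higher and 5 lower, 0.639%). With array cycle and set as blocks 92 passed (78 higher and 14 lower, 1.09%), and 0 of the 6 were among them in either fit. Both fits kept the near-identical arrays as 2 and were not repeated without that pair. Without blocks, leaving out the pair took the probes at an unadjusted limma p under 0.05 from 555 to 363. Fcgr1 had a difference of -0.12 from 6 to 16 months (interval -0.22 to -0.0071, limma adjusted p = 0.999), and all 10 arrays at 16 months lay below the 6 month mean. The 6 month AL group ranged from 1.18 to 1.66 around a median of 1.32, and the 16 month group, with the near-identical arrays averaged, from 1.17 to 1.34 around 1.25. Cd160 differed by 0.11 over the same interval (adjusted p = 0.999). From 16 to 24 months the 6 differences lay between -0.11 (Malt1) and 0.061 (Dtx3l), with Cd160 at -0.093. The Dtx3l value was 0.0035 without 16 months AL female replicate 2 and -0.041 without both near-identical arrays. From 6 to 24 months the differences lay between -0.13 (Lgals3bp) and 0.034 (Dtx3l), with Fcgr1 at -0.076. The 95% interval of the Fcgr1 difference from 6 to 24 months, -0.18 to 0.032, and that of H2-T10, -0.15 to 0.18, bound what these arrays could show.

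In CR mice 0 of the 6 passed in the 3 adult age comparisons, as did 0 of 8448 probes in each (0%; limma, with 0, 1 and 1 of the 6 and 197, 351 and 289 probes at an unadjusted p under 0.05). Dtx3l in CR mice ranged from -0.72 to -0.16 around a median of -0.53 at 16 months and from -1.05 to -0.44 around -0.80 at 24 months. Of the 8 older mice 6 lay below the younger mean, and the difference was -0.27 (-0.44 to -0.11, limma adjusted p = 0.999). After subtraction of neighbours it was -0.095. Within arrays 1 to 45 it was -0.36, and within arrays 46 to 67 it was -0.13. H2-T10 differed by 0.26 between 6 and 24 months on CR (0.081 to 0.44, adjusted p = 1.00), by 0.15 between 6 and 16 months, and by 0.13 between 6 and 24 months without 24 months CR male replicate 1. Cd160 differed by 0.11 from 6 to 16 months and by -0.12 from 16 to 24 months, and Dtx3l by -0.16 from 6 to 24 months.

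The effect of diet was asked at each adult age and over the 3 ages. None of the 6 passed at 6, 16 or 24 months or over all 3, and 0 of 8448 probes passed in each comparison (0%; limma, with 0, 0, 2 and 2 of the 6 and 39, 87, 88 and 60 probes at an unadjusted p under 0.05). H2-T10 had the largest diet difference of the 6 over the 3 ages. At 24 months its values on CR were 1.29, 0.50 and 0.54 in males and 0.74, 0.34, 0.26, 0.57 and 0.47 in females, and on AL they ran from 0.24 to 0.56 around a median of 0.34. Of the 8 CR mice 6 lay above the AL mean, and the ranges overlapped. The CR minus AL difference of H2-T10 was -0.0070 at 6 months, 0.15 at 16 months and 0.24 at 24 months (0.067 to 0.42, limma adjusted p = 1.00). Over the 3 ages it was 0.13 (0.032 to 0.23, limma adjusted p = 1.00), and 0.15 and 0.10 within the earlier and the later array set.

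One CR mouse at 24 months carried much of the last value. Without 24 months CR male replicate 1, whose z score was 1.29, the H2-T10 difference at 24 months was 0.11 and that over the 3 ages 0.086. Within arrays 1 to 45, which hold this mouse, the difference at 24 months was 0.30, and within arrays 46 to 67 it was 0.13. The difference between diets at 24 months less that at 6 months, the interaction of diet with age, was 0.25 for H2-T10 (limma adjusted p = 1.00), and 0 of the 6 and 0 of 8448 probes passed in it (0%; 1 of the 6 and 90 probes at an unadjusted p under 0.05). The CR males of 24 months were younger than their AL counterparts, so part of any diet value at this age cannot be told apart from age.

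The Fcgr1 mean was lower on CR than on AL at each adult age, and no difference passed. At 6 months CR values ran from 1.10 to 1.38 around a median of 1.25, against 1.18 to 1.66 around 1.32 on AL, and 8 of 9 CR mice lay below the AL mean. The difference was -0.11 at 6 months, -0.015 at 16 months and -0.080 at 24 months. Over the 3 ages it was -0.069 (-0.13 to -0.0039, limma adjusted p = 1.00), -0.069 within arrays 1 to 45, -0.074 within arrays 46 to 67 and -0.072 after subtraction of neighbours.

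Dtx3l took opposite signs at the 2 later ages. It differed by 0.15 at 16 months, with 8 of 10 CR mice above the AL mean, and by -0.18 at 24 months (-0.35 to -0.016, limma adjusted p = 1.00), with 6 of 8 CR mice below it; within arrays 1 to 45 and 46 to 67 the latter was -0.25 and -0.078. Its diet by age interaction from 6 to 24 months was -0.20 (adjusted p = 1.00), and over the 3 ages the difference was -0.0061. At 16 months the AL group included the near-identical arrays at -1.06 and -1.05, the lowest of that group. The diet difference of Dtx3l at 16 months was 0.095 without the female array of this pair and 0.050 without both arrays, and that over the 3 ages was -0.040 without both. Cd160 differed by 0.061 at 6 months and 0.051 over the 3 ages, Lgals3bp by 0.037 and Malt1 by 0.014 over the 3 ages. The diet intervals of Lgals3bp and Malt1 over the 3 ages ran from -0.13 to 0.20 and from -0.17 to 0.20.

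**Figure D5:**
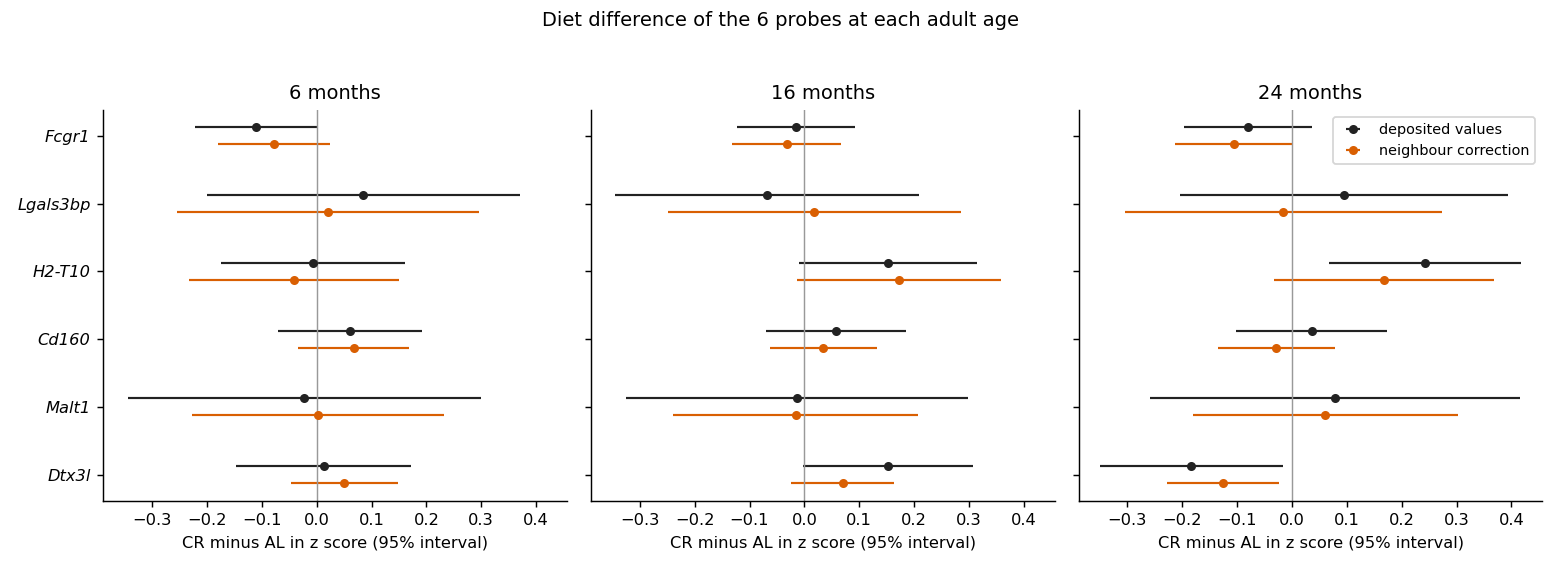
CR minus AL difference in z score (horizontal axis, points with 95% intervals) of the 6 probes at 6, 16 and 24 months, from the deposited values (black) and after subtraction of neighbouring probes (orange). H2-T10 goes from -0.0070 to 0.15 and 0.24 and Dtx3l from 0.013 to 0.15 and -0.18; none of these passed after adjustment.

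A selection after the first steps of the study's methods took probes with a z ratio beyond 1.5, a mean z score above 0 and an unadjusted p under 0.05, so of the 6 it could take Fcgr1 and H2-T10. For that p the groups being compared were fitted by themselves and each probe kept its own spread, so it differs from the limma p; the further test in the methods across ages, sexes and diets was not run. It selected H2-T10 from 6 to 16 months on CR (1.07% of all probes selected), from 6 to 24 months on CR (1.41%), and between diets at 16 months (0.118%), at 24 months (0.485%) and over the 3 ages (0.355%), where Fcgr1 was selected too. These shares are over all 8448 probes, of which 4167 had a mean z score above 0 over all 67 arrays. The shares among probes that could be taken are therefore higher. Between the sexes at the adult ages 0 of the 6 and 0 of 8448 probes passed (0%; limma, with 1 of the 6 and 82 probes at an unadjusted p under 0.05). Dtx3l had a female minus male difference of 0.098 (0.0054 to 0.19, adjusted p = 1.00), and 0.045 after subtraction of neighbours, and Cd160 differed by 0.069.

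The wider pathways of the 6 genes were read as lists that contain the members. Of 22 listed genes of Fc receptor signalling 7 were measured, of 41 of class I presentation 5, of 18 of class II presentation 2, of 50 of the MALT1 complex and NF-kB 12, of 79 of the interferon response and DTX3L partners 16, of 5 deltex ligases 2, and of 16 galectins and scavenger receptors 3. No gene of these lists passed in any of the 14 comparisons on the deposited values without blocks. Cd160, which passed at the juvenile ages, is in the list of lymphocyte genes given above. At the juvenile ages the median difference was 0.0050 for Fc receptor signalling (4 positive, 3 negative), -0.083 for class I (2 and 3), -0.28 for class II (0 and 2), 0.098 for MALT1 and NF-kB (8 and 4), 0.014 for interferon (9 and 7), -0.043 for deltex ligases (1 and 1) and -0.33 for galectins (0 and 3), against 0.0033 over all probes. The Malt1 difference was opposite in sign to 8 of the 12 in its list, and none of these passed. The largest of these were Nfkb2, an NF-kB subunit (0.27), Rela, another subunit (0.24), and Ikbke, an I-kappa-B kinase (0.33). Birc3 (-0.18, row 7), Tab2 (-0.058, row 10) and Prkcb (-0.0075, row 14) were negative, as Malt1 was. Malt1 lies in filter row 6, where 86.6% of all probes were negative. Nfkb2, Rela and Ikbke lie in rows 10, 13 and 18, with 46.9%, 43.8% and 31.8% negative. The galectin genes Lgalsl, Lgals7 and Lgals3bp lie in rows 1, 3 and 8. The part of the filter row in these signs was not tested.

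From 16 to 24 months on AL, where no gene of any list passed, the gene with the smallest p was taken from each. Ptpn6, a phosphatase that restrains Fc receptor signals, differed by 0.12, H2-K1, a classical class I heavy chain, by 0.11, and Cd74, the class II invariant chain, by -0.17. Cd244a differed by 0.18, Ikbkb, the I-kappa-B kinase beta, by 0.16, Gbp2, an interferon-induced GTPase, by -0.12, Dtx3l by 0.061 and Lgalsl, a galectin-like protein, by -0.076. All adjusted p-values in the list were at least 0.781. For diet over the 3 ages these genes were Fcgr1 and H2-T10 with the values above, Cd74 (0.062), Cd160 (0.051), Rela (-0.070), Isg20, an interferon-induced exonuclease (-0.12), Dtx1, another deltex ligase (-0.015), and Lgals7, a galectin (0.055).

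Marker genes of other cells gave C3ar1, a complement receptor of microglia (-0.11), Hba-x, an embryonic alpha globin (0.15), Acta2, the smooth muscle actin (-0.17), Clu (0.12), Car2 (-0.074) and Uchl1 (-0.17) from 16 to 24 months on AL. For diet they gave Fcgr1, Hbb-y (-0.028), Acta2 (0.059), Clu (-0.050), Car2 (-0.025) and Uchl1 (-0.062), with no adjusted p below 0.709 in either comparison. Fcgr1 is itself a marker of microglia, and the list mean of the 10 measured genes of microglia and complement ranged from -0.37 to -0.20 over the 3 adult AL ages and from -0.40 to -0.21 over the CR ages.

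The 2 named probes most like each gene over the 16 group means, by Pearson's r as a description, often lay beside it on the filter. For Fcgr1 they were Mad2l1bp (r = 0.862) and Snx3 (r = 0.812), both in its block and row, and after subtraction of neighbours these were 0.458 and 0.435. For Cd160 they were Nol4l (0.936) and Senp7 (0.935), again in its block and row, and for Dtx3l they were Zfp729a (0.917), in the same block and row, and Vps41 (0.880), in the same row of another block. Malt1 was most like Sycp2 (0.986) and Tbl2 (0.976), and Lgals3bp most like Rock1 (0.923) and Pcif1 (0.921), probes that were lower on the later array set, as Malt1 and Lgals3bp were. H2-T10 had the weakest likeness, to Smpd4 (0.760) and Lifr (0.756).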

How the data were processed

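Radiolabelled cDNA of each cortex was hybridized to a cDNA filter, and the authors extracted spot intensities, took logarithms and Z-transformed each array, so the deposited values are a score with a mean of 0 and an SD of 1 per array. No source used here gives the log base or the background handling, and the number of arrays limits the precision. Groups came from the labels. A mean for each of 16 age, diet and sex groups was fitted to 8448 probes on 67 arrays with limma 3.58.1 (R 4.3.3), and 14 comparisons were tested, two-sided, with Benjamini-Hochberg adjustment over all probes and a threshold of 0.05. The script was tested on simulated data. The labels name a separate mouse for each array. Alternatives were quantile normalization, median centring, a filter on mean z score, blocks for array set and cycle, single sets, neighbour correction, array weights, compared groups alone, the near-identical arrays left out, a selection after the methods (without their last step), and each array left out. All 6 members were named in every comparison; from each list every gene that passed was named, and the gene with the smallest p where none did. The members and lists were chosen with earlier results of these data known. Likeness was measured over 16 group means. Of the probes, 224 with several symbols and 3349 with none were tested but not named.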

Additional observations from a re-analysis of the deposited data

Results flagged for a closer look

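Among 66 combinations of gene and group with 4 or 5 arrays, 3 single arrays stood apart from the rest of their group by Dixon's criterion, where chance gives about 1 in 20 (3.3 here). Fcgr1 was 1.42 in 16 months CR male replicate 2, against 1.10 to 1.19 in the other 4. Lgals3bp was -0.60 in 6 months CR male replicate 4, against -0.16 to -0.07 in the other 3, and this array is number 50, of the later set. Dtx3l was -1.05 in 16 months AL female replicate 2, against -0.57 to -0.38 in the other 4, and this is 1 of the 2 near-identical arrays. The part of array set in these values was not tested.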

How the results depend on the processing

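In the juvenile comparison 1 of the 6 probes passed, and 2 did with array set as a block. With the filter on mean z score (which leaves out Cd160), array cycle as a block, arrays 1 to 45 only, neighbour correction with or without blocks, array weights, the compared groups only, or the selection after the methods, 0 passed. From 16 to 24 months on AL 54 of all probes passed with cycle and 92 with both as blocks, in place of 0. Those fits kept the near-identical arrays as 2 and were not repeated without that pair. With arrays 46 to 67 only, 1 to 5 of all probes passed in those comparisons where any did. No member was among the probes that passed in these fits. Leaving out 1 array each gave 0 to 3 members in the juvenile comparison and 0 to 1 from 33-44 days to 6 months. Without 33-44 days AL female replicate 1, Fcgr1 passed in both, at -0.30 and 0.33, and Malt1 and Cd160 in the first. The selection after the methods, without its last step, gave 1 from 6 to 16 and 6 to 24 months on CR and for diet at 16 and at 24 months, and 2 for diet over the 3 ages, in place of 0. All 6 genes were followed in the 2 comparisons with 33-44 days and for diet over the 3 ages. In each other comparison only the 2 genes with the smallest limma p were followed, which made 40 member differences. Sign changes of the remaining member differences were not counted. Of 488 values of the 40 differences under other settings, 24 changed sign. For Dtx3l at the juvenile ages they were -0.047, -0.068, -0.067 and -0.14 with set, cycle, both as blocks and arrays 1 to 45 only, and -0.036 and -0.024 with neighbour correction without and with blocks; from 33-44 days to 6 months 0.0019 (quantile), 0.0084 (set), 0.030 (cycle), 0.12 (arrays 1 to 45) and 0.0062 (neighbours); from 16 to 24 months on AL -0.041 without the near-identical arrays; and for diet over the 3 ages 0.0040 (cycle) and 0.0016 (both). For diet over the 3 ages Malt1 gave -0.0080 (set), -0.012 (cycle), -0.0065 (both), -0.014 (arrays 1 to 45) and -0.013 (array weights), and Lgals3bp -0.012 (arrays 1 to 45) and -0.020 (neighbours with blocks). Juvenile Fcgr1 was 0.042 with neighbour correction, and Cd160 from 6 to 16 months was -0.055 on AL and -0.028 on CR in arrays 46 to 67. Leaving out 1 array, 29 of 1022 values changed sign, with ranges of -0.11 to 0.11 (Dtx3l, juvenile), -0.11 to 0.10 (Dtx3l, 33-44 days to 6 months), -0.025 to 0.010 (Dtx3l, diet over 3 ages) and -0.011 to 0.053 (Malt1, diet over 3 ages). The cause of these sign changes was not tested, and some settings also leave out arrays or probes. No paired analysis was possible because the labels carry no replicate numbers shared between groups; successive runs of array numbers (cycle) were fitted as a block instead, with the values above. Each juvenile age held 5 mice, and why probes did or did not pass was not tested.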
